A study of Mus musculus with 12 samples.

Results

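The genes described here encode the later steps of fatty acid beta-oxidation and the enzymes that prepare unsaturated fatty acids for it. They are Decr1, Decr2, Eci1, Eci2, Eci3 and Ech1, the auxiliary enzymes of unsaturated acyl-CoA, and Hadh, Hadha, Hadhb and Acaa2, the core steps, 10 genes of 22180 tested in all. The genes were chosen by symbol, with earlier results of these data known. Each was read through 1 transcript cluster, a set of short array probes summarised into 1 value. RNA came from whole livers of 12 adult female mice on a C57Bl/6 background, aged 12 to 14 weeks and kept on a light-dark cycle. The groups were 6 Ppara KO mice, which carry a knockout of Ppara, and 6 WT mice, with 1 Affymetrix MoGene 2.0 ST array per mouse. The labels give no knockout allele, fasting state or time of collection. All values below are RMA values on the log2 scale, and all differences are Ppara KO minus WT. A gene was called at an adjusted p under 0.05 in limma, a linear model fitted across all genes, with Benjamini-Hochberg adjustment over the 22180 genes.

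PPARα, the product of Ppara, is a nuclear receptor that senses fatty acids and drives genes of fatty acid oxidation in hepatocytes. Beta-oxidation shortens an acyl-CoA in a repeated cycle of dehydrogenation, hydration, a second dehydrogenation and thiolytic cleavage, in mitochondria and, for very long and branched chains, in peroxisomes. Double bonds of unsaturated fatty acids often sit where the hydratase of the cycle cannot use them. Enoyl-CoA isomerases move such a bond, 2,4-dienoyl-CoA reductases remove 1 of a conjugated pair with NADPH, and the dienoyl-CoA isomerase ECH1 rearranges a further type of intermediate.

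Of the 6 auxiliary genes, 4 fell in Ppara KO livers, Decr2, Eci1, Eci2 and Ech1, and none rose. Of the 4 core genes, none was called lower or higher. At an unadjusted limma p under 0.05 there were 2 core genes, Hadha and Hadhb, both with the lower value in Ppara KO. By that p Hadha ranked 3907 and Hadhb 4220 among the 22180 genes, so many other genes had a smaller p. Treat, the limma test against a 1.2-fold change, called 0 of the 4. It could not have called any, because every core estimate was under 1.2-fold (the largest was 1.18-fold, for Hadhb). Over all genes, 5.77% were called lower and 4.46% higher, 10.2% in either direction. The 4 genes that fell were also at least 1.5-fold lower, which 1.53% of all genes were. In these 4 genes no Ppara KO value overlapped a WT value, as in 6.51% of all genes, whereas the values overlapped in each of the other 6. Because the genes were chosen with earlier results known, these shares are given for scale and are not a test. The median difference was -0.69 over the auxiliary genes and -0.15 over the core genes, beside 0.01 over all genes tested. Whole liver was measured, so fewer cells of a type and less RNA per cell cannot be told apart.

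**Figure D1:**
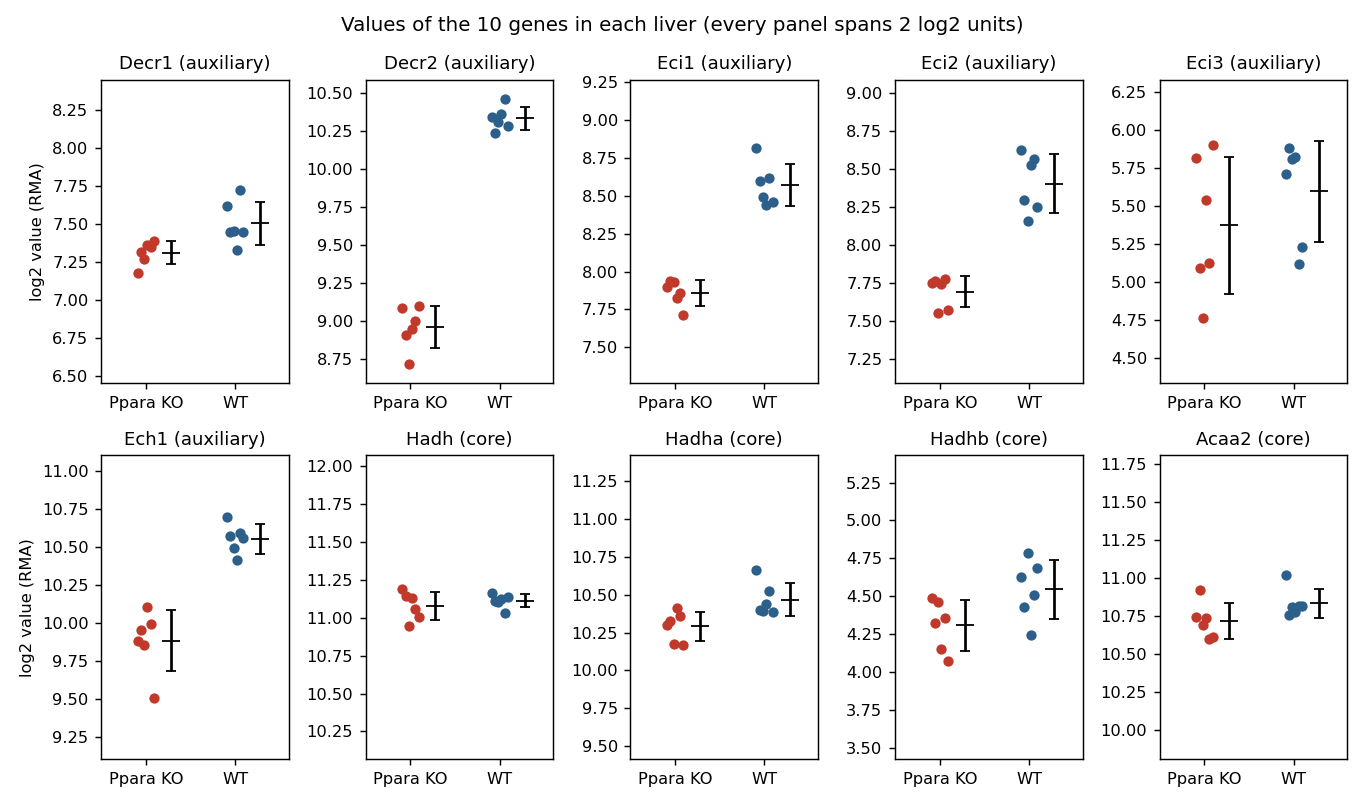
The log2 value (vertical axis, RMA) of each gene is plotted for 6 Ppara KO mice (red, left) and 6 WT mice (blue, right), 1 point per mouse, with the mean and SD beside the points. Every panel spans the same 2 log2 units, and only Decr2, Eci1, Eci2 and Ech1 show a gap between the genotypes.

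The 2,4-dienoyl-CoA reductases came apart. Decr2, the peroxisomal reductase, ranged from 8.72 to 9.10 in Ppara KO livers (median 8.98) and from 10.24 to 10.46 in WT livers (median 10.33). All 6 Ppara KO livers were low, and the gap to the lowest WT liver was wider than the range of either genotype. The mean was 8.96 ± 0.14 in Ppara KO and 10.33 ± 0.08 in WT (SD, n = 6 each), a difference of -1.38 ± 0.074 (SE), or 2.60-fold lower, with a limma adjusted p of 2.22e-08. Decr2 ranked 9 by unadjusted p among all genes tested.

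Decr1, the mitochondrial reductase of the same reaction, ranged from 7.18 to 7.39 in Ppara KO livers (median 7.33) and from 7.33 to 7.72 in WT livers (median 7.45). Of the 6 WT values, 5 lay above every Ppara KO value, and WT mouse 4 lay among them. Its difference of -0.19 ± 0.074 (SE) was not called (limma adjusted p 0.120), and the 95% interval ran from -0.35 to -0.04. Without WT mice 1, 3 and 5 it was -0.10.

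The changes of the 2 reductases differed from each other. Within each liver the Decr2 value minus the Decr1 value was 1.65 ± 0.15 in Ppara KO and 2.83 ± 0.11 in WT (SD, n = 6 each). This shift of -1.18 gave a 2-sided p of 0.00216 in an exact permutation test, which cannot go lower with 6 mice against 6, and 0.0130 after adjustment over the 6 pairs of genes compared. The pairs were chosen with earlier results of these data known, so the p-values of all 6 pairs are descriptive only.

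The enoyl-CoA isomerases shift a misplaced double bond into the position that the hydratase takes. Eci1, the mitochondrial isomerase, ranged from 7.71 to 7.94 in Ppara KO livers (median 7.88) and from 8.44 to 8.82 in WT livers (median 8.55). The genotypes were separate, and WT mouse 1 was the highest of all. The difference was -0.71 ± 0.075 (SE), or 1.64-fold lower, with a limma adjusted p of 2.31e-05.

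Eci2, an isomerase found in peroxisomes and mitochondria, ranged from 7.55 to 7.77 in Ppara KO livers (median 7.74) and from 8.16 to 8.63 in WT livers (median 8.41). Again every Ppara KO liver was below every WT liver. The difference was -0.71 ± 0.089 (SE), or 1.64-fold lower, with a limma adjusted p of 1.14e-04. The fall of Eci2 and that of Eci1 were close in size: the Eci2 value minus the Eci1 value was -0.17 ± 0.11 in Ppara KO and -0.17 ± 0.16 in WT (SD, n = 6 each), and the exact 2-sided permutation p of the shift was 0.965.

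Eci3, a neighbour and paralogue of Eci2, ranged from 4.76 to 5.90 in Ppara KO livers (median 5.33) and from 5.12 to 5.88 in WT livers (median 5.76). The values of both genotypes were scattered over the same span. Its SD was 0.45 in Ppara KO and 0.33 in WT, where the median SD over all genes was 0.156. The difference of -0.22 ± 0.19 (SE) was not called (limma adjusted p 0.557), and its 95% interval, -0.64 to 0.19, did not reach the difference measured for Eci2. The Eci2 value minus the Eci3 value shifted by -0.49 (exact 2-sided permutation p 0.0823, and 0.165 adjusted over the 6 pairs), so a difference between the paralogues in their response did not pass the test. Eci2 and Eci3 have no protein-coding gene between them in the RefSeq gene order, and whether probes of one cluster match the other gene was not checked.

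Ech1, the dienoyl-CoA isomerase, which is found in both mitochondria and peroxisomes, ranged from 9.51 to 10.10 in Ppara KO livers (median 9.92) and from 10.41 to 10.70 in WT livers (median 10.57). The groups did not overlap, and Ppara KO mouse 6 was the lowest. The mean was 9.88 ± 0.20 in Ppara KO and 10.56 ± 0.10 in WT (SD, n = 6 each). The difference was -0.67 ± 0.091 (SE), or 1.59-fold lower, with a limma adjusted p of 2.33e-04.

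Of the core genes, Hadha and Hadhb encode the subunits of the mitochondrial trifunctional protein, which hydrates, dehydrogenates and cleaves long-chain acyl-CoA. Hadha, the subunit with the hydratase and dehydrogenase activities, ranged from 10.17 to 10.41 in Ppara KO livers (median 10.31) and from 10.38 to 10.67 in WT livers (median 10.42). Most WT livers lay above most Ppara KO livers, with an overlap at 10.4. Its difference was -0.18 ± 0.071 (SE; limma adjusted p 0.140), and the 95% interval of -0.33 to -0.03 did not reach the size of the falls of Eci1, Eci2 and Ech1.

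Hadhb, the thiolase subunit, ranged from 4.07 to 4.49 in Ppara KO livers (median 4.34) and from 4.25 to 4.79 in WT livers (median 4.57). The ranges overlapped widely, and the difference of -0.24 ± 0.10 (SE) was not called (limma adjusted p 0.160). Its transcript cluster was dim, at 4.55 in WT on average, where the median gene of the array stood at 4.57. RMA compresses differences of dim clusters, so the change of Hadhb is measured less well than that of the other core genes. Hadhb encodes an abundant mitochondrial enzyme subunit, and whether a cluster without a symbol also reads it was not checked, which limits every value of Hadhb below, the counts and the mean of the core genes included.

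Hadh, the dehydrogenase for medium and short chains, ranged from 10.95 to 11.19 in Ppara KO livers (median 11.09) and from 11.03 to 11.16 in WT livers (median 11.12). The WT values lay within the Ppara KO range. The difference of -0.03 ± 0.061 (SE) had a limma adjusted p of 0.812 and a 95% interval from -0.16 to 0.10. Acaa2, the mitochondrial thiolase that acts on medium chains, ranged from 10.60 to 10.93 in Ppara KO livers (median 10.72) and from 10.76 to 11.02 in WT livers (median 10.82). Its difference of -0.12 ± 0.071 (SE) was not called either (limma adjusted p 0.375, 95% interval -0.27 to 0.04).

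Among the 3 pairs of core genes compared, no shift passed the test after adjustment over the 6 pairs. The Hadha value minus the Hadhb value was 5.98 ± 0.20 in Ppara KO and 5.92 ± 0.22 in WT (SD, n = 6 each), a shift with an exact 2-sided p of 0.604 by permutation. The Acaa2 value minus the Hadhb value shifted by 0.12 (exact p 0.266), or by 0.07 without WT mouse 3. The Hadh value minus the Hadha value was 0.79 ± 0.07 in Ppara KO and 0.64 ± 0.11 in WT, with an exact p of 0.0195 and 0.0584 after adjustment. Within a genotype, Hadha and Hadhb values were set against each other over 6 mice. Pearson's r was -0.019 in Ppara KO (exact permutation p 0.939) and 0.002 in WT (exact permutation p 0.956), and both adjusted values were 0.956 over the 2 relations. Spearman's rho was -0.029 in Ppara KO (exact permutation p 1.0) and -0.429 in WT (exact permutation p 0.419). Without the 2 mice farthest from the median Hadha value r was -0.927 in Ppara KO and -0.898 in WT, each over 4 mice. No test was run on these trimmed sets, and no relation between the 2 genes is drawn from them.

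**Figure D2:**
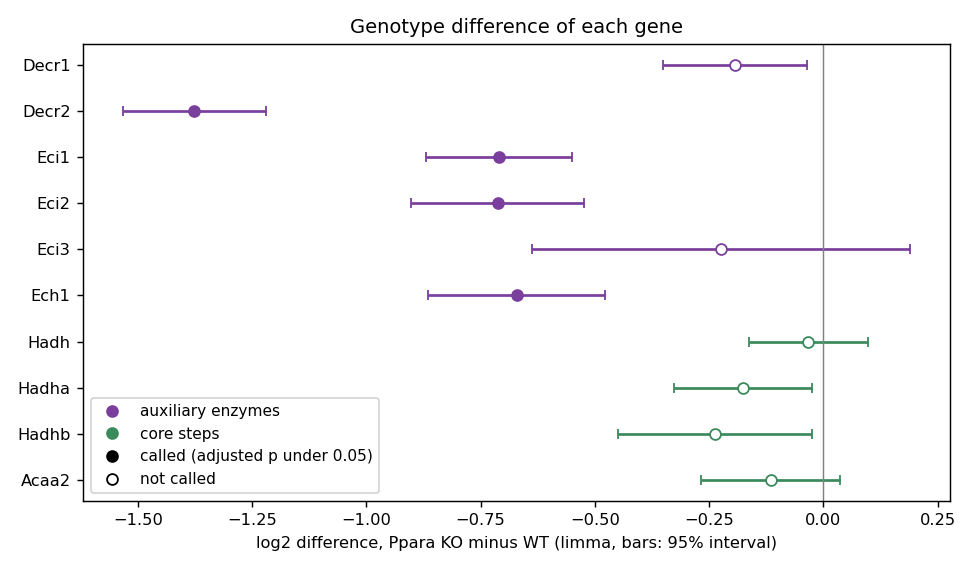
The log2 difference, Ppara KO minus WT (horizontal axis, limma, bars show the 95% interval), is plotted for each gene, auxiliary enzymes in purple and core steps in green, with called genes filled. Decr2 lies at -1.38, Eci1, Eci2 and Ech1 lie between -0.71 and -0.67, and the other 6 genes lie between -0.24 and -0.03.

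Averaged per liver, the auxiliary genes stood apart from the core genes by genotype. The mean of the 6 auxiliary genes was 7.85 ± 0.09 in Ppara KO and 8.49 ± 0.09 in WT, and the mean of the 4 core genes was 9.10 ± 0.08 in Ppara KO and 9.24 ± 0.08 in WT (SD, n = 6 each). The auxiliary mean minus the core mean ran from -1.39 to -1.10 in Ppara KO livers (median -1.24) and from -0.88 to -0.66 in WT livers (median -0.72). Every Ppara KO liver was lower in this quantity than every WT liver, and the genotype means differed by -0.51, by -0.36 without Decr2, and by -0.54 without Hadhb, the last an alternative added after its dim cluster was seen. No p is given for these means, because the genes were selected with results of these arrays known.

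**Figure D3:**
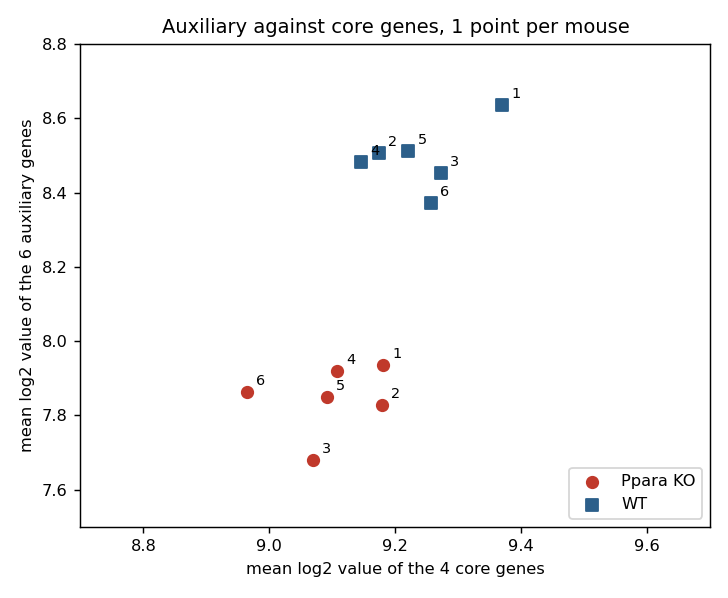
Each point is 1 mouse (numbers as in the labels), with the mean log2 value of the 4 core genes on the horizontal axis and that of the 6 auxiliary genes on the vertical axis, Ppara KO as red circles and WT as blue squares. The genotypes separate along the auxiliary axis (at most 7.93 in Ppara KO, at least 8.37 in WT) and overlap along the core axis (8.96 to 9.18 in Ppara KO, 9.15 to 9.37 in WT).

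The other genes of the pathway place these values. Among 18 further measured genes of the mitochondrial pathway 7 fell and 1 rose, with a median difference of -0.18. The 4 falls with the smallest adjusted p were Etfdh (-1.04), the ubiquinone reductase that receives electrons from acyl-CoA dehydrogenases, Etfb (-0.82), a subunit of the flavoprotein that carries them there, Cpt2 (-0.90), which rebuilds acyl-CoA inside the mitochondrion, and Acadvl (-0.83), which dehydrogenates very long chains. Their limma standard errors ran from 0.066 to 0.074 and their adjusted p-values from 1.71e-07 to 2.41e-06. The gene that rose was Acadm, the medium-chain acyl-CoA dehydrogenase (0.20 ± 0.059, SE; limma adjusted p 0.0387), a call that ended when any 1 of 9 of the 12 mice was left out. Echs1, the short-chain hydratase that follows the dehydrogenases, did not pass the test, with 9.50 ± 0.09 in Ppara KO and 9.48 ± 0.10 in WT (SD, n = 6 each; limma adjusted p 0.924). Acat1, the acetoacetyl-CoA thiolase (-0.18 ± 0.079, SE), and Cpt1a, the outer carnitine palmitoyltransferase (0.23 ± 0.086, SE), were not called.

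Of 16 other measured genes of peroxisomal beta-oxidation and linked peroxisomal fatty acid and CoA metabolism 6 fell and 2 rose, with a median difference of -0.10. Phyh and Hacl1 of this list act in alpha-oxidation and Nudt19 in CoA breakdown. Hsd17b4, the D-bifunctional protein, which carries the hydratase and dehydrogenase steps in peroxisomes, fell by 0.64 (SE 0.059; limma adjusted p 5.73e-06). Ehhadh, the L-bifunctional protein with hydratase, isomerase and dehydrogenase activities, was not called: it stood at 9.63 ± 0.14 in Ppara KO and 9.71 ± 0.40 in WT (SD, n = 6 each; limma adjusted p 0.816). Abcd2, which carries very long chain acyl-CoA into peroxisomes, fell by 2.10 (SE 0.18), Hacl1, a lyase, by 0.74 (SE 0.12), and Crot, the carnitine octanoyltransferase, by 0.61 (SE 0.11), with limma adjusted p-values from 2.49e-06 to 0.00176. Phyh, the phytanoyl-CoA hydroxylase, rose by 0.26 (SE 0.056; adjusted p 0.00753), as did Nudt19, a CoA diphosphatase, by 0.43 (SE 0.097; adjusted p 0.00985). Slc27a2, a very long chain acyl-CoA synthetase (-0.05 ± 0.069, SE), and Scp2, the sterol carrier protein with a thiolase activity (0.20 ± 0.082, SE), were not called.

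**Figure D4:**
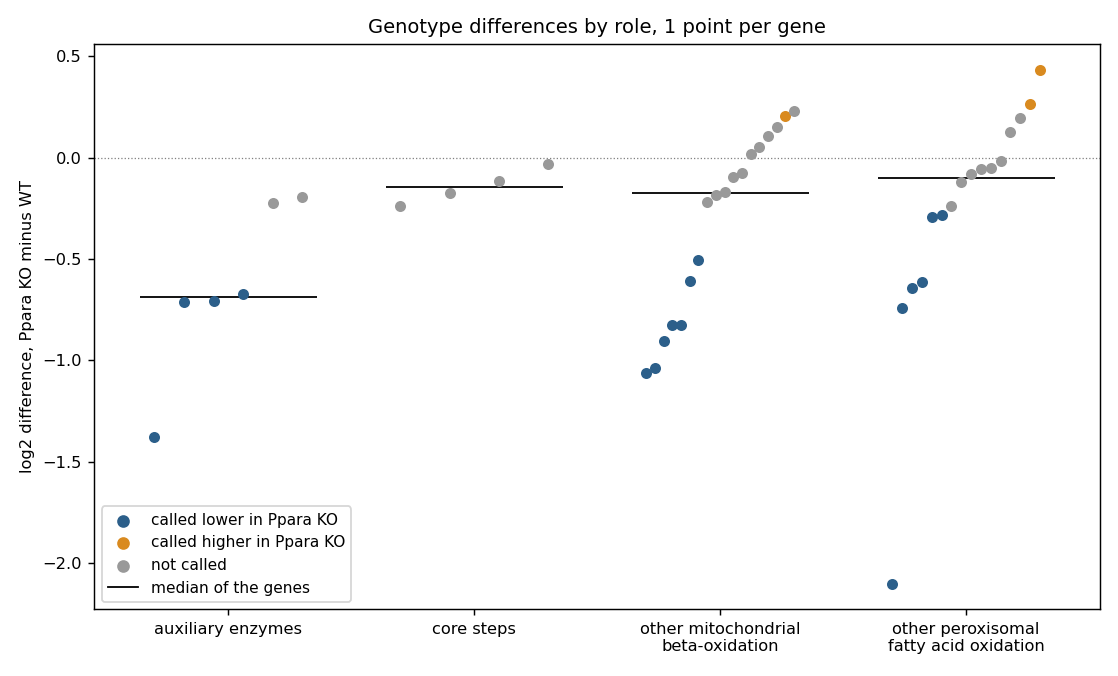
The log2 difference, Ppara KO minus WT (vertical axis), is plotted for each gene, 1 point per gene, by role: 6 auxiliary enzymes, 4 core steps, 18 other mitochondrial and 16 other peroxisomal genes. Blue genes were called lower and orange genes higher in Ppara KO, grey genes were not called, and the line is the median (-0.69, -0.15, -0.18 and -0.10 from left to right).

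Promoter windows were read for the consensus letters bound by PPARα with its partner RXR, because members of 1 pathway moved unequally. RefSeq windows of GRCm38.p6, 250 bases before to 50 bases after a gene's start, were at hand for 8 of the 10 genes. The motif searched on both strands was AGGTCANAGGTCA, a direct repeat of the unit AGGTCA with 1 base between. The unit was in none of the 8 windows and in 16.3% of 32851 windows of all genes. The whole motif with at most 2 mismatches was likewise in none of the 8 and in 3.86% of all, and with at most 3 mismatches it was in 1 of the 8, that of Hadh, and in 24.6% of all. The closest stretches of the 4 genes that fell and of Hadh are shown, since the gene with the closest letters was a core gene that was not called. Each line runs 5′ to 3′ on the strand of the gene, and capitals mark 13 letters as close to the motif as any in the window, on either strand. Equally close stretches numbered 8 in the Decr2 window, 3 in that of Eci1, 2 each in those of Eci2 and Ech1 and 1 in that of Hadh, and 1 of each is shown.
Decr2 (chr17:26090390-26090414, minus strand, 5 mismatches): gggaAAGGAACCGGGCAtttaactg
Eci1 (chr17:24426483-24426511, plus strand, 4 mismatches): ctctgcaaGTGCCTCTGAGCTctggcagc
Eci2 (chr13:34994340-34994368, minus strand, 4 mismatches): tgtgccaaTCACCTTTGTACGgagttgga
Ech1 (chr7:28825135-28825163, plus strand, 4 mismatches): gtcccactGGGCCAAAGGTTTaagcaacg
Hadh (chr3:131272167-131272195, minus strand, 3 mismatches): gtccatgcTGGCCTGAGTCCTggcaccgc
These matches describe letters in short windows only, and say nothing of binding there or elsewhere.

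Hadha and Hadhb lie head to head, with 272 bases between their RefSeq starts and 228 bases shared by their windows. The stretch of 250 bases before the start of Hadhb lies wholly between the 2 starts and is printed because both genes are read away from it. Capitals mark the 2 stretches of 13 letters that are equally close to the motif, each with 4 mismatches.
Hadhb and Hadha, chr5:30155003-30155252, plus strand: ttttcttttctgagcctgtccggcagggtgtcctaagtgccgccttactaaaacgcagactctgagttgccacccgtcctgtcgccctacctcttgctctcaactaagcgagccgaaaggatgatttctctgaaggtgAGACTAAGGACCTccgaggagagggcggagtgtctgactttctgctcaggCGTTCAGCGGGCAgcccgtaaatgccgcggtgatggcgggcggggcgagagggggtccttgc
Both genes had small differences without a call (-0.18 and -0.24).

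Facts of the whole series bear on these values as follows. Ppara itself had 8.01 ± 0.13 in Ppara KO and 7.98 ± 0.16 in WT (SD, n = 6 each; limma adjusted p 0.882), so its cluster, whose probes are not placed relative to the disrupted part here, does not check the labels. Hepatocyte markers averaged 11.68 to 11.91 in Ppara KO livers and 11.70 to 11.83 in WT livers, and 0 of 8 were called by limma, with 0 at an unadjusted p under 0.05. Adipocyte markers averaged 4.57 to 4.82 in Ppara KO, and 5.53, 6.19 and 6.21 in WT mice 1, 3 and 5 against 4.85 to 5.07 in the other WT mice, and 3 of 8 fell, Adipoq, Lipe and Cd36, with 7 of 8 lower at an unadjusted limma p under 0.05. Without WT mice 1, 3 and 5 the differences of Decr2, Eci1, Eci2 and Ech1 were -1.34, -0.64, -0.67 and -0.63 and were still called (limma adjusted p at most 0.0116). Of the markers of other liver cells, 2 of 4 for cholangiocytes fell (Krt19 and Sox9). For Kupffer cells 1 of 6 rose (Cd5l), with 3 of 6 higher at an unadjusted limma p under 0.05. For endothelial and stellate cells 0 of 6 each were called. At that unadjusted p, 3 endothelial markers were lower (Stab2 -0.14, Clec4g -0.23 and Cdh5 -0.23). The 2 stellate markers at that p went opposite ways (Lrat 0.39, Pdgfrb -0.28). Such a p was common over all genes, since Hadhb, at a limma p of 0.0304, ranked 4220 of 22180. Kupffer markers averaged 7.47 to 7.70 in the other Ppara KO livers and 8.31 in Ppara KO mouse 2, and 7.12 to 7.52 in WT livers. The clock genes Dbp (9.83 ± 0.42 in Ppara KO, 6.34 ± 0.39 in WT) and Npas2 (4.24 ± 0.20 in Ppara KO, 7.72 ± 0.12 in WT) also separated the genotypes, and the part of this state and of the cholangiocyte and Kupffer markers in the differences above was not tested.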

How the data were processed

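The authors deposited log2 values made with RMA and Partek, per the submitters' processing notes, without versions. RMA corrects background, brings arrays to a common distribution and summarises probes. The 12 array medians lay between 4.13 and 4.17. No scanner files were used, so detection above background is unknown, and the number of arrays limits the precision (median SE 0.0926).

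Of 41345 transcript clusters, 23521 had 1 gene symbol in the platform annotation. The cluster with the highest mean stood for a gene, which gave 22180 genes. Genes were fitted with limma 3.58.1 in R 4.3.3, 1 mean per genotype, lmFit and eBayes, 2-sided. Over all genes, 1279 were called lower and 989 higher. These counts became 652 and 418 at an adjusted p under 0.01, and 224 and 105 with treat. They became 618 and 390 without WT mice 1, 3 and 5, and 509 and 373 without WT mice 1, 2 and 3. Pairs of genes were compared with exact 2-sided permutation tests over 924 assignments (scipy 1.17.1). On simulated data of 22180 genes the fit recovered 18% of 50 genes changed 1.25-fold, 88% of 50 changed 1.5-fold and 100% of 50 changed 2-fold. Besides these only 50 genes, at 4-fold, were changed, far fewer in all than were called in the data. The adjustment was therefore stricter in the simulation, and recovery in the data may be higher. Each member without a call had a measured change under 1.25-fold, so the lack of a call does not show a lack of change. The mice are separate animals per the labels. The members, lists and pairs were chosen with earlier results of these data known. The text names all members, Ppara, Echs1, Ehhadh, and of the pathway lists the 4 called genes with the smallest p and the 2 highest that were not called, plus genes behind counts of 5 or fewer and the clock genes Dbp and Npas2, chosen after their values were seen. Some listed genes were not analysed here. Same-numbered mice did not deviate together (correlations -0.047 to 0.043).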

Additional observations from a re-analysis of the deposited data

Results flagged for a closer look

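Among 20 sets of 6 values (10 genes in each of the 2 genotypes), 1 had a value far from the others by Dixon's gap test, about what chance gives at 1 in 20. Acaa2 stood at 11.02 in WT mouse 1, above the next WT value of 10.82, with the lowest at 10.76. The gap was 0.766 of the range, over the critical value for 6 samples. WT mouse 1 was also the highest WT liver for Eci1, Eci2, Ech1, Hadh and Hadha.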

How the results depend on the processing

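All 249 results of single genes over 25 alternatives (24 for Hadhb, which a filter on dim genes removed) kept their direction and their side of the threshold. The counts of 4 auxiliary genes lower, 0 higher, and of 0 core genes lower or higher were the same in all 25, including the 12 fits that leave out 1 mouse and the fit with the mouse number as a replicate block. Over the alternatives the difference of Decr2 ran from -1.41 to -1.33, that of Eci1 from -0.74 to -0.64, that of Eci2 from -0.76 to -0.67 and that of Ech1 from -0.71 to -0.60, with an adjusted p of at most 0.0194, from treat against 1.2-fold for Ech1. The genes without a call moved more in proportion: Eci3 from -0.33 to -0.02, Hadhb from -0.30 to -0.14, Decr1 from -0.23 to -0.10, Hadha from -0.20 to -0.12, Acaa2 from -0.16 to -0.07 and Hadh from -0.06 to -0.01. Some came near the threshold. The lowest limma adjusted p was 0.0513 for Decr1, with only genes at or above the median level tested. It was 0.0521 for Hadha with an intensity trend and robust prior, and 0.0623 for Hadhb without WT mouse 4. The auxiliary mean minus the core mean ran from -0.54 to -0.48 with 1 mouse left out, and was -0.36 without Decr2.

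The shift of Decr2 against Decr1 ran from -1.23 to -1.14 with 1 mouse left out and passed the test each time. It did not pass with the replicate block (-1.18, adjusted p 0.0938) or without WT mice 1, 3 and 5 (-1.24) or 1, 2 and 3 (-1.22; both adjusted p 0.143), where the smallest unadjusted p possible is 0.03125 and 0.0238. The shift of Eci2 against Eci1, near 0, turned to 0.0019 after a further quantile normalization, and ran from -0.038 to 0.047 with 1 mouse left out (0.0389 without Ppara KO mouse 3, 0.0472 and 0.0200 without WT mouse 4 or 5). That of Hadha against Hadhb ran from -0.0019 (without WT mouse 3) to 0.116. That of Hadh against Hadha ran from 0.114 to 0.164 with 1 mouse left out, passed only without Ppara KO mouse 5 (0.161, adjusted p 0.0260), and was 0.0735 without WT mice 1, 3 and 5. That of Acaa2 against Hadhb ran from 0.0705 to 0.171.

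Of the other mitochondrial genes, 6 to 7 were lower with 1 mouse left out and 0 to 1 higher. The 1 higher gene became 0 with the replicate block, quantile normalization, arrays centred on their median, all transcript clusters tested, adjusted p under 0.01, treat, and either set of 3 WT mice left out, and 2 with an intensity trend. Of the other peroxisomal genes, 4 to 6 were lower with 1 mouse left out. Treat left 3 lower and 0 higher, and the higher count was 1 without WT mice 1, 3 and 5 and 0 without WT mice 1, 2 and 3. Counts over all genes moved too. The causes were not tested. No pairing was seen (0 of 6 Ppara KO mice matched their own number best), but so few cannot exclude it.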
